A study of Mus musculus with 8 samples.

Results

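The Hmga genes and a group of oncofetal let-7 targets were described in MC3T3-E1, a cell line of pre-osteoblasts taken from mouse calvaria. The 7 genes, of 55335 gene rows in the table, were taken by symbol: Hmga1, Hmga1b, Hmga2, Igf2bp1, Igf2bp2, Igf2bp3 and Lin28b. They were chosen with the difference of Hmga1 between the groups already known, so the values of all 7 are given as a description. Those that entered the fit across all genes have their results in it given without a conclusion. One group (n = 4 libraries) was cultured for 3 days with TABS, short for Trio-Active bone scaffold, and the other (n = 4) for 3 days with HA, a scaffold of hydroxyapatite to which magnesium was added. The sources used here do not say what TABS is made of. All 8 libraries came from cells with a scaffold, so higher or lower is always relative to HA. In the library names H stands for TABS and L for HA, which follows from the labels alone.

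HMGA proteins are small chromatin proteins that bind AT-rich DNA through short AT-hook motifs and help other factors assemble on it. Hmga1 and Hmga2 are abundant in embryos and dividing progenitors and low in most adult tissues. Let-7 is a family of microRNAs that accumulates as cells differentiate and represses transcripts with matches to its seed, the bases next to its 5′ end. Hmga2, Lin28b and Igf2bp1 to Igf2bp3 are textbook let-7 targets. Lin28 proteins in turn block the maturation of let-7, and the Igf2bp genes encode RNA-binding proteins that stabilise or localise growth-related mRNAs. This table measures RNA of genes, not mature microRNA, so the level of let-7 itself was not measured.

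The 4 family members below show the shared seed, bases 2 to 8, in capitals (RefSeq, GRCm38.p6). Let-7a is the founding sequence, let-7b and let-7i are variants downstream of the seed, and miR-98 carries another name.
mmu-let-7a-5p: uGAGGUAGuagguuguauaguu
mmu-let-7b-5p: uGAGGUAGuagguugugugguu
mmu-let-7i-5p: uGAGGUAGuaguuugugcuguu
mmu-miR-98-5p: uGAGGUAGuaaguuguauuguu
Of 11 mature names of the family in the table, 10 share this seed. A seed match in a transcript reads CTACCTC, and an 8-base site reads CTACCTCA.

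To check the label, each gene's annotated 3′ UTR was searched on the sense strand in the longest protein-coding transcript (GENCODE, GRCm38). All 7 genes held at least 1 match. The windows below show 1 site per gene, with the match in capitals, and all lie in 3′ UTR exons.
Hmga1, chr17:27563278-27563298, plus strand: cctctgttcacaaaCTACCTC
Hmga1b, chr11:120763999-120764019, plus strand: cctctgttcacaaaCTACCTC
Hmga2, chr10:120364224-120364245, minus strand: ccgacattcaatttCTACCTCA
Igf2bp1, chr11:95961778-95961799, minus strand: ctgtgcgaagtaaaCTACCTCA
Igf2bp2, chr16:22059473-22059494, minus strand: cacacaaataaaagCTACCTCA
Igf2bp3, chr6:49086787-49086808, minus strand: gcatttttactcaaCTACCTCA
Lin28b, chr10:45381022-45381043, minus strand: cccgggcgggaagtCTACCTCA
Hmga1 and Hmga1b had the same window, 801 bases after the stop codon, and it was their only match. Neither had an 8-base site. Hmga2 had 1 8-base site, 58 bases after the stop, and 3 matches of CTACCTC without the final A. Counting also matches of TACCTCA without the first C, Hmga2 had 7 sites in a 3′ UTR of 3014 bases. Igf2bp1 had 3 8-base sites in 6337 bases, and Igf2bp2, Igf2bp3 and Lin28b had 1 each. Lin28b also had 3 matches of CTACCTC without the final A, as Hmga2 had. Counted over all 3 kinds of match, Igf2bp1 and Lin28b had 5 sites each, Igf2bp2 had 2 and Igf2bp3 had 1.

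**Figure D1:**
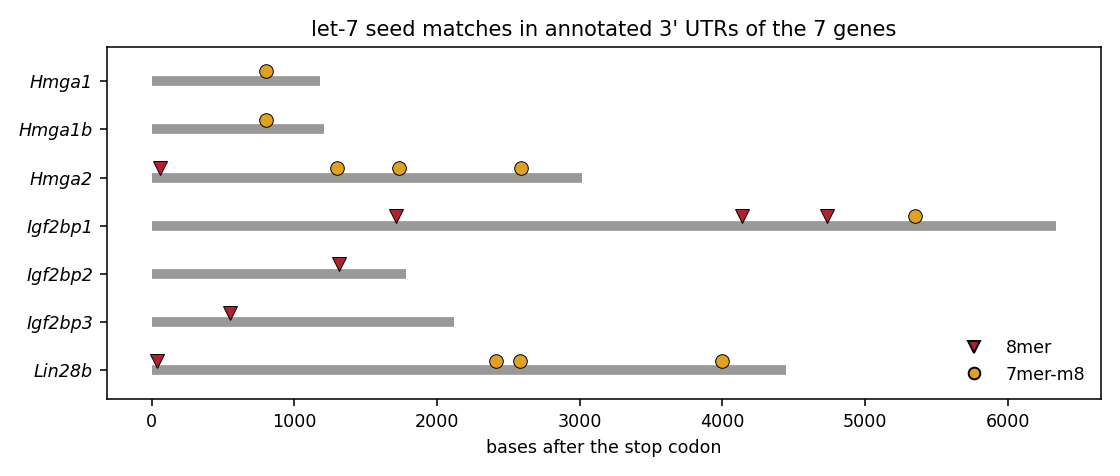
The annotated 3′ UTR of each gene is drawn as a bar to scale, in bases after the stop codon, with triangles for 8-base let-7 sites and circles for CTACCTC without the final A. Igf2bp1 has the longest 3′ UTR and 3 triangles, and the single circle of Hmga1 and of Hmga1b lies at the same distance from the stop.

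These matches were uncommon among the genes tested. Of 10135 tested genes with an annotated 3′ UTR, 3.51% held at least 1 8-base site and 9.98% at least 1 match of CTACCTC. At least 4 such matches were found in 3 genes (0.0296%), which were Hmga2 with 4, Igf2bp1 with 4 and Nr6a1, a nuclear receptor gene outside the 7, with 8. Lin28b also held 4 but was not among the tested genes. A match is a sequence description and does not show that let-7 acts there.

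The deposited values were FPKM, fragments per kilobase of transcript scaled to the fragments of the library, so levels can be compared between genes. Each library held between 11187 and 11357 genes of at least 1 FPKM, and each correlated best with another library of its own group. The FPKM of all genes summed to 304893 to 307263 in the TABS libraries and 312629 to 317439 in the HA libraries. These sums did not overlap, so the scale of the values differed slightly between the groups. Of 7 markers of the osteoblast lineage, 5 reached 1 FPKM in all 8 libraries and 0 stayed below it in all. Of the 7, 5 were lower in every TABS library than in every HA library, namely Runx2, Sp7, Col1a1, Alpl and Ibsp. Among all genes tested this held for 7.15%. Ibsp, a bone matrix protein gene, stood at 12.8 to 16.0 FPKM in TABS and 46.8 to 55.2 FPKM in HA, and Sp7, an osteoblast transcription factor gene, at 10.6 to 10.99 FPKM in TABS and 14.6 to 16.7 FPKM in HA. Spp1 was higher, at 3083 to 3569 FPKM in TABS and 2082 to 2644 FPKM in HA, and Bglap overlapped. The sum of the 7, most of it Spp1, was 3995 to 4509 FPKM in TABS and 3495 to 3847 FPKM in HA. Of 17 markers of other cell types, 12 stayed below 1 FPKM in every library, while Lyz2, Fabp4, Krt14, Sox9 and Col2a1 lay above it in all 8. Col2a1 was higher in every TABS library, at 5.33 to 5.79 FPKM in TABS and 3.82 to 4.96 FPKM in HA, while Fabp4 and Sox9 overlapped. The sum of the 3 leukocyte markers, 11.02 to 16.2 FPKM in TABS and 17.8 to 19.9 FPKM in HA, was nearly all Lyz2, while Ptprc was at no more than 0.0104 FPKM and Cd68 overlapped. The sum of the 3 epithelial markers, 1.13 to 1.47 FPKM in TABS and 2.38 to 3.61 FPKM in HA, was nearly all Krt14, with Epcam at 0 and Krt8 overlapping. The part of these single genes and of the osteoblast markers in the results below was not tested. In bulk RNA, fewer cells of a kind and less RNA per cell cannot be told apart. A gene entered the fit across all genes when it had at least 1 FPKM in at least 4 of 8 libraries. Of the 7 genes, 6 did, and Lin28b did not.

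In that fit (limma on log2(FPKM + 1), Benjamini-Hochberg adjusted p under 0.05), 833 of 11280 genes passed, or 7.38%. Of the 6, 3 passed, all higher in TABS, against 4.49% of all genes that were higher and 2.90% that were lower. Hmga1 was not among those passing when any single library other than TABS 1 was left out. All 4 TABS libraries lay above all 4 HA libraries in the same 3, Hmga1, Hmga1b and Hmga2. Over all genes, the groups did not overlap in 18.0%, with TABS above HA in 10.8% and below it in 7.15%. Since the genes were chosen with this contrast known, nothing is read from these counts.

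Hmga2 (ENSMUSG00000056758, chromosome 10, 120361275 to 120476469, minus strand) had the highest mean level of the 7 in both groups, each gene taken alone. The sum of Hmga1 and Hmga1b, which can share reads, was higher, at a mean of 48.4 FPKM in TABS and 26.0 FPKM in HA. Hmga2 stood at 28.5, 29.0, 29.5 and 29.4 FPKM in TABS 1 to 4, against 18.9, 19.3, 22.5 and 20.5 FPKM in HA 1 to 4. The TABS libraries lay close together, all above the highest HA library, HA 3. The means were 29.1 ± 0.437 FPKM in TABS and 20.3 ± 1.61 FPKM in HA (SD, n = 4), a ratio of 1.44. On the log2(FPKM + 1) scale the difference was 0.50 ± 0.05 (SE, 95% interval 0.38 to 0.63). Its coefficient of variation within TABS was 1.5%, against a median of 6.06% over all tested genes, and within HA it was 7.93%, against 7.58%. Exons of Hmga2 overlap those of the antisense gene 1700006J14Rik by 140 bases, and that gene was listed at no more than 0.0762 FPKM in TABS and 0.0695 FPKM in HA.

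Hmga1b (ENSMUSG00000078249, chromosome 11, 120762794 to 120764419, plus strand) is annotated as a protein-coding gene with a single exon in its longest transcript. It stood at 22.3, 21.0, 24.1 and 23.1 FPKM in TABS 1 to 4, against 15.7, 13.96, 15.9 and 12.6 FPKM in HA 1 to 4. The groups were well apart, with no library of either group far from its own. The means were 22.6 ± 1.32 FPKM in TABS and 14.5 ± 1.57 FPKM in HA, a ratio of 1.56. The log2 difference was 0.61 ± 0.08 (SE, 95% interval 0.44 to 0.78).

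Hmga1 (ENSMUSG00000046711, chromosome 17, 27556497 to 27563674, plus strand, 17 annotated transcripts) encodes the main HMGA1 proteins. It stood at 44.2, 18.8, 21.0 and 19.1 FPKM in TABS 1 to 4, against 14.2, 10.4, 9.72 and 11.4 FPKM in HA 1 to 4. TABS 1 stood far above the other TABS libraries, while Hmga1b and Hmga2 in TABS 1 lay close to those of TABS 2 to 4. The means were 25.8 ± 12.4 FPKM in TABS and 11.4 ± 1.98 FPKM in HA, a ratio of 2.25. Without TABS 1 the TABS mean was 19.6 ± 1.18 FPKM (n = 3), and the ratio to HA was 1.72. The log2 difference was 1.03 ± 0.25 (SE, 95% interval 0.46 to 1.59) with all libraries and 0.74 without TABS 1. Without any other single library it was between 0.96 and 1.14. By the spacing of low values, TABS 1 was the shallowest library if a step is 1 fragment, with 18.2 fragments per FPKM and kilobase against 21.0 to 26.1 in the others. At most 22.2% of the low values were whole steps in any library, so depth is unknown. The part of depth in the Hmga1 value was not tested. Hmga1 exons overlap those of AI413582 on the opposite strand by 102 bases. AI413582 stood at 9.57 to 13.7 FPKM in TABS and 8.28 to 12 FPKM in HA, and at 10.1 FPKM in TABS 1.

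**Figure D2:**
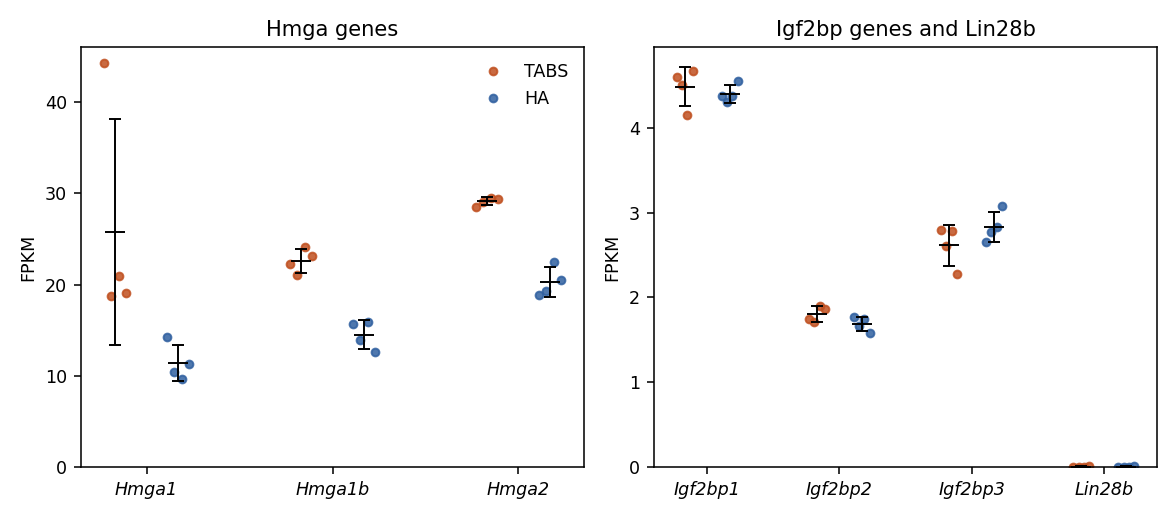
FPKM of each gene in each library (points, TABS left of HA), with the mean and SD over 4 libraries as bars and one linear axis per panel. The 3 Hmga genes lie higher in all TABS libraries, with Hmga1 of TABS 1 at 44.2 FPKM, and the Igf2bp genes overlap between the groups.

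Hmga1 and Hmga1b can share reads, so how the fragments were divided between them is uncertain. Over 1595 aligned bases, transcripts of the 2 genes differed at 6 positions, an identity of 99.6%. Of all stretches of 150 bases, the length of a read, in the longest Hmga1b transcript, 69.5% were found letter for letter in an Hmga1 transcript. In the longest Hmga1 transcript 51.9% were found in Hmga1b, and none was found in Hmga2. Summed, the 2 genes stood at 66.5, 39.8, 45.1 and 42.2 FPKM in TABS 1 to 4, against 29.9, 24.4, 25.6 and 23.9 FPKM in HA 1 to 4. The sums did not overlap between the groups, and TABS 1 stood above the other TABS libraries here too. The mean sum was 48.4 ± 12.3 FPKM in TABS and 26.0 ± 2.74 FPKM in HA, a ratio of 1.86, or 1.63 without TABS 1. The log2 difference of the sum was 0.85. Hmga1 made up 66.5% of the sum in TABS 1, against 45.3% to 47.2% in the other TABS libraries and 38.0% to 47.5% in HA.

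**Figure D3:**
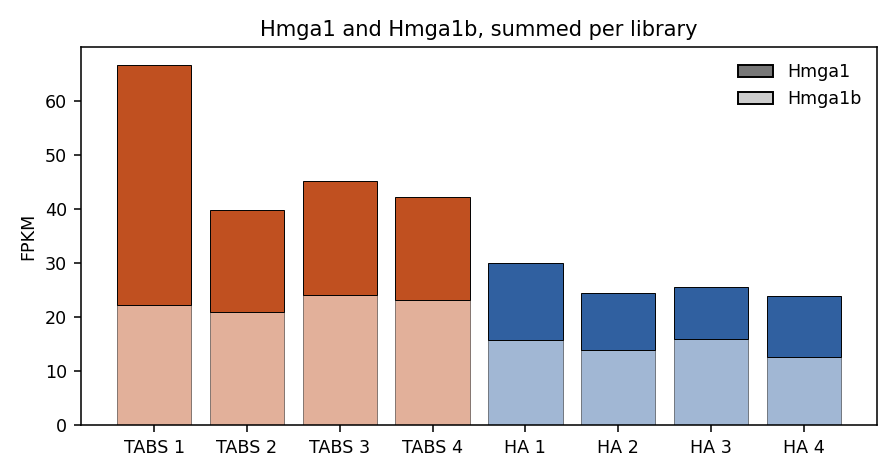
Stacked bars give FPKM of Hmga1b (pale, bottom) and Hmga1 (dark, top) in each library on a linear axis from 0, TABS in orange and HA in blue. The sum lies between 39.8 and 66.5 FPKM in TABS and between 23.9 and 29.9 FPKM in HA, and the Hmga1b part of TABS 1 is like that of TABS 2 to 4.

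The 3 Igf2bp genes were low, and their ranges overlapped between the groups. Igf2bp1 (ENSMUSG00000013415, chromosome 11, 95957163 to 96005940, minus strand), which encodes the protein known for carrying beta-actin mRNA, stood at 4.60, 4.50, 4.15 and 4.67 FPKM in TABS 1 to 4, against 4.38, 4.30, 4.37 and 4.55 FPKM in HA 1 to 4. The TABS libraries held both the lowest and the highest value. The log2 difference was 0.02 ± 0.05 (SE, 95% interval -0.08 to 0.12). Igf2bp2 (ENSMUSG00000033581, chromosome 16, 22059009 to 22163299, minus strand), which has been tied to metabolism and is a known transcriptional target of HMGA2, stood at 1.75, 1.71, 1.90 and 1.86 FPKM in TABS 1 to 4, against 1.76, 1.66, 1.75 and 1.58 FPKM in HA 1 to 4. The groups overlapped, with TABS 3 and TABS 4 above every HA library. The log2 difference was 0.06 ± 0.05 (95% interval -0.05 to 0.17). Igf2bp3 (ENSMUSG00000029814, chromosome 6, 49085223 to 49214957, minus strand), the member best known from embryos and tumours, stood at 2.79, 2.61, 2.79 and 2.28 FPKM in TABS 1 to 4, against 2.65, 2.77, 2.84 and 3.08 FPKM in HA 1 to 4. HA 4 was highest and TABS 4 lowest. The log2 difference was -0.09 ± 0.06 (95% interval -0.22 to 0.05).

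The intervals of the 3 Igf2bp genes include 0 and end at 0.17 or below, on a scale that shrinks changes of low genes. As ratios of mean FPKM, TABS over HA was 1.02 for Igf2bp1, 1.07 for Igf2bp2 and 0.923 for Igf2bp3. The sign was not stable to scaling for Igf2bp1, which was at -0.05 after correction for GC content and transcript length and at 0.06 after rescaling to TPM, which fixes the sum of all genes in a library. Exons of Igf2bp3 overlap those of Malsu1, on the opposite strand, by 1529 bases. Malsu1 stood at 2.78 to 3.64 FPKM in TABS and 2.54 to 2.83 FPKM in HA. Because the strand setting is not given, it is unknown to which of the 2 genes reads within that stretch were counted.

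Lin28b (ENSMUSG00000063804, chromosome 10, 45376620 to 45486395, minus strand), the blocker of let-7 maturation, was at or next to 0. It was listed at 0 in TABS 1 and at no more than 0.0135 FPKM in the other TABS libraries, and at 0.00439 to 0.0206 FPKM in HA. Its paralogue Lin28a was listed at up to 0.00777 FPKM in TABS and at 0 in every HA library. By mean level in both groups, the order was thus Hmga2 first, the Igf2bp genes in the order 1, 3 and 2, and Lin28b last. Hmga1 and Hmga1b came between Hmga2 and Igf2bp1, with Hmga1 above Hmga1b in TABS (below it without TABS 1) and below it in HA. The places of Hmga1 and Hmga1b rest on how shared reads were divided, and their sum lay above Hmga2 in both groups.

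The let-7 loci themselves were read only as the RNA of genes that contain a let-7 hairpin. Of 10 such genes in the annotation, 3 passed the filter and 0 of them passed (limma, adjusted p = 0.253 for Wdr82, 0.472 for Huwe1 and 0.764 for Lncppara). At an unadjusted p under 0.05 there were 0 of the 3, against 2716 of 11280 over all genes tested. Huwe1, a ubiquitin ligase gene that contains Mirlet7f-2 and Mir98, stood at 41.5 ± 1.09 FPKM in TABS and 39.9 ± 1.76 FPKM in HA. Wdr82, a gene of the histone methylation machinery that contains Mirlet7g, stood at 14.4 ± 0.744 FPKM in TABS and 13.2 ± 0.825 FPKM in HA. Lncppara, which contains Mirlet7b and Mirlet7c-2, stood at 2.12 to 2.45 FPKM in TABS and 1.77 to 2.69 FPKM in HA. Among those below the filter, D630033A02Rik, which contains Mirlet7i, stood at 0.611 to 0.761 FPKM in TABS and 0 to 0.46 FPKM in HA. It was too low to be tested, and it was 1 of 10 whose groups did not overlap, against 18.0% of all genes tested. These RNAs do not measure mature let-7.

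In a list of 22 tested let-7 targets outside the 7, 1 rose, 1 fell and 20 did not pass, a share near the 7.38% of all genes that passed, with a median log2 difference of -0.02, against 0.01 over all genes tested. Plagl1, an imprinted zinc finger gene of fetal growth, fell to 3.32, 3.33, 2.96 and 3.30 FPKM in TABS 1 to 4, against 5.98, 4.94, 5.11 and 5.52 FPKM in HA 1 to 4 (log2 difference -0.59 ± 0.06 SE, limma adjusted p = 0.000948). Every TABS library lay below every HA library, and the call held in all 18 alternatives that tested it. Its paralogue Plagl2 rose to 5.0 ± 0.207 FPKM in TABS, against 4.21 ± 0.239 FPKM in HA (0.21 ± 0.05, adjusted p = 0.0396). The call on Plagl2 was lost without any single library (adjusted p 0.0562 to 0.104). Igf1r, a growth factor receptor gene, stood at 3.6 ± 0.152 FPKM in TABS and 3.08 ± 0.132 FPKM in HA (0.17 ± 0.05, adjusted p = 0.0533) and is named after its values were seen, as are the next 2. The cell cycle gene Ccnd1 stood at 97.8 ± 3.27 FPKM in TABS and 97.6 ± 2.96 FPKM in HA. Nras stood at 3.97, 8.73, 3.77 and 6.57 FPKM in TABS 1 to 4, against 6.62, 9.48, 3.78 and 10.2 FPKM in HA 1 to 4, a spread of more than the difference of the group means.

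Genes chosen by sequence alone, for 8-base let-7 sites in the 3′ UTR, were then compared. Of 12 tested genes outside the 7 with at least 2 8-base sites, 0 passed (limma). At an unadjusted p under 0.05 there was 1 of the 12, against 2716 of 11280 over all genes tested. That 1 was Nr6a1, at 1.42 ± 0.0848 FPKM in TABS and 1.14 ± 0.0991 FPKM in HA (0.18 ± 0.05, adjusted p = 0.0787), which passed after quantile normalization. Hif1an, a regulator of the hypoxia response, stood at 9.50 ± 0.339 FPKM in TABS and 8.86 ± 0.448 FPKM in HA (adjusted p = 0.266). The median log2 difference was 0.04 in these 12 genes, 0.02 in 340 genes with 1 site and 0.01 in 9777 genes with none. Among genes with 1 site 6.76% rose and 2.35% fell, and among genes with none 4.78% rose and 2.96% fell. The groups also differed in 3′ UTR length, with medians of 4916 bases for at least 2 sites, 2368 bases for 1 and 1112 bases for none; the part of that length was not tested.

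**Figure D4:**
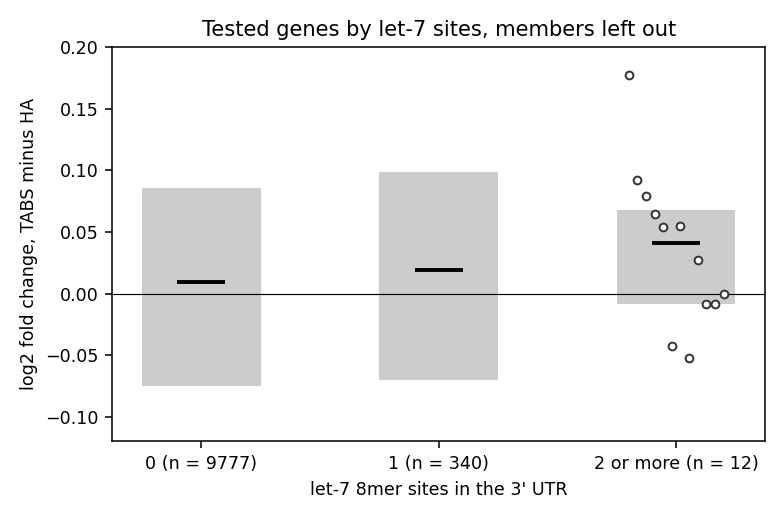
Log2 difference, TABS minus HA on log2(FPKM + 1), of tested genes outside the 7 by number of 8-base let-7 sites; the black line is the median, the grey bar the middle 50% of genes, and open circles are the 12 genes with at least 2 sites. The medians are 0.01, 0.02 and 0.04, within the grey bar of every group.

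Of 17 tested genes that mature let-7 or carry out its silencing, 0 rose and 1 fell, a share near the 7.38% of all genes, with a median log2 difference of 0.03. Hnrnpa1, an RNA-binding protein gene known to hinder let-7a processing, fell to 63.3 ± 1.52 FPKM in TABS, against 73.0 ± 4.14 FPKM in HA (-0.20 ± 0.05, adjusted p = 0.0386). Leaving out any library other than HA 2 ended its call (adjusted p up to 0.107), as did quantile normalization. It was also lost after rescaling to TPM, where Ago1 and Ago2, named after their values were seen, rose. Dicer1, the final processing enzyme and itself a let-7 target, stood at 2.46 ± 0.175 FPKM in TABS and 2.27 ± 0.223 FPKM in HA (adjusted p = 0.454).

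Of 11 other tested high mobility group genes, 1 rose, 1 fell and 9 did not pass, against 7.38% of all genes that passed, with a median log2 difference of -0.06. Neither call held with no filter on low values. Hmgn5, a nucleosome-binding protein gene, fell to 2.21 ± 0.298 FPKM in TABS, against 3.26 ± 0.45 FPKM in HA (-0.41 ± 0.09, adjusted p = 0.0287). Its call was lost without TABS 1, TABS 3, TABS 4, HA 3 or HA 4 (adjusted p up to 0.0779). Hmgxb3, an HMG-box gene, rose to 6.78 ± 0.269 FPKM in TABS, against 5.85 ± 0.235 FPKM in HA (0.18 ± 0.05, adjusted p = 0.0432), a call lost without any single library (adjusted p 0.053 to 0.112). Hmgb1, the most studied HMG-box gene and named after its values were seen, stood at 23.9 ± 1.96 FPKM in TABS and 26.8 ± 2.63 FPKM in HA.

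Of 4 tested RNAs known to be bound by Igf2bp proteins, 1 rose and 0 fell, with a median log2 difference of 0.0024. Igf2r, the imprinted receptor gene that clears Igf2 and carries lysosomal enzymes, rose to 34.8, 35.0, 34.9 and 33.6 FPKM in TABS 1 to 4, against 25.5, 26.5, 25.8 and 26.0 FPKM in HA 1 to 4 (0.40 ± 0.03, adjusted p = 0.00059). The groups were far apart, and the call held in all 19 alternatives. Igf2 and the let-7-binding RNA H19 did not pass the filter, at no more than 0.505 and 0.494 FPKM in TABS and 0.996 and 0.17 FPKM in HA. Of 6 tested genes linked to Hmga proteins, 0 passed (limma), with a median log2 difference of 0.05. At an unadjusted p under 0.05 there were 0 of the 6, against 2716 of 11280 over all genes tested. Nearest were the cell cycle genes E2f1, at 19.6 ± 0.995 FPKM in TABS and 18.4 ± 0.73 FPKM in HA (adjusted p = 0.316), and Ccnb2, at 20.7 ± 1.20 FPKM in TABS and 19.3 ± 1.47 FPKM in HA (adjusted p = 0.383). Cdkn2a and Cdkn2b, cell cycle inhibitor genes of which the first is known to be repressed through Hmga2, were listed at 0 in every library. In all, 6 of 57 tested genes of these lists passed, or 10.5%, against 7.38% of all genes. At an unadjusted p under 0.05 (limma) there were 14 of the 57, against 2716 of 11280 over all genes tested, a like share. These counts take both directions together. By list, these were 6 of 22 let-7 targets, 3 of 17 let-7 machinery genes, 3 of 11 high mobility group genes and 3 of 4 Igf2bp-bound RNAs, some genes being in more than 1 list. With 1 library left out, Plagl1 and Igf2r passed each time. Of the other 4, Hmgn5 passed without TABS 2, HA 1 or HA 2, Hnrnpa1 without HA 2, and Plagl2 and Hmgxb3 in none of the 8 fits. Outside the 6, the growth gene Myc, lower in TABS, passed without TABS 1, and Ago2, higher in TABS, passed without HA 4.

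**Figure D5:**
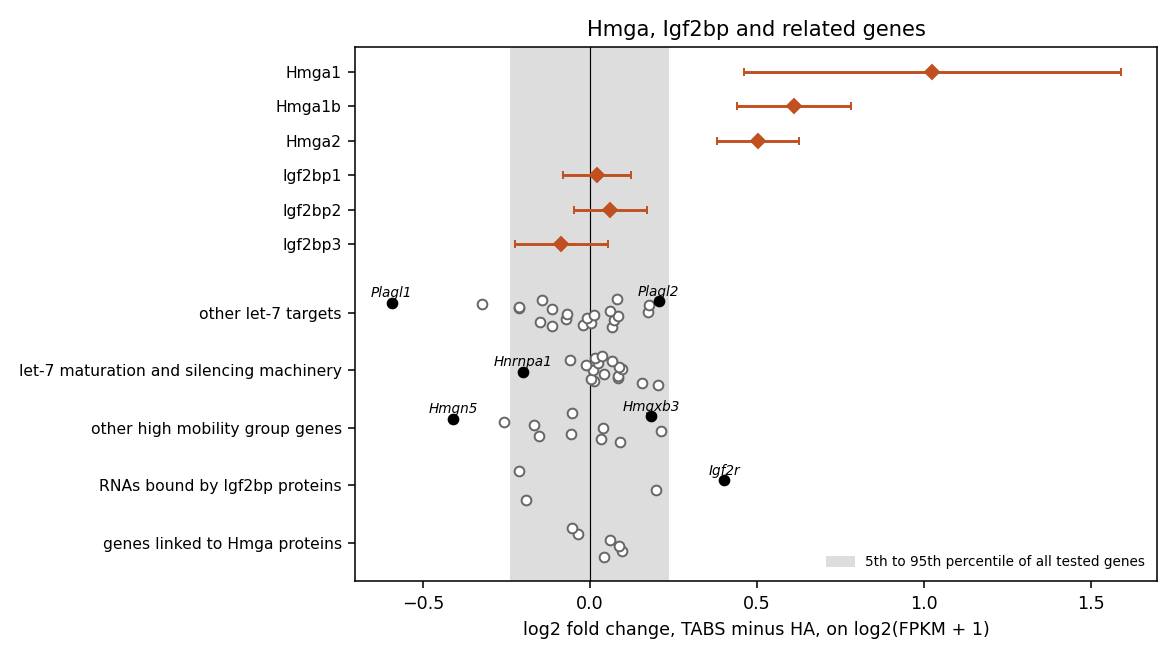
Log2 differences, TABS minus HA on log2(FPKM + 1), of 6 of the 7 genes (diamonds with 95% intervals, as a description) and of the tested genes of each list (circles, filled and named where adjusted p is under 0.05). The grey band holds the 5th to 95th percentile of all tested genes, and the 3 Hmga genes lie to its right.

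The genes whose levels followed Hmga1 most closely over the 8 libraries were Dtx3 (Pearson r = 0.99), Gpr153 (0.98), Kmt2d (0.96), Mrgpre (0.95), Phactr4 (0.95) and Smox (0.95), on log2(FPKM + 1). Each was highest in TABS 1, as Hmga1 was, which choosing genes by their likeness to Hmga1 favours. Dtx3, a ubiquitin ligase gene, stood at 21.4, 18.8, 19.6 and 18.9 FPKM in TABS 1 to 4, against 17.9, 16.9, 17.2 and 17.5 FPKM in HA 1 to 4. Smox, a spermine oxidase gene, stood at 6.34, 5.05, 5.43 and 5.64 FPKM in TABS 1 to 4, against 4.74, 4.40, 3.93 and 4.20 FPKM in HA 1 to 4. Kmt2d encodes a histone methyltransferase, and Gpr153 and Mrgpre encode orphan receptors. Over the 7 libraries without TABS 1, 0 of these 6 stayed among the 6 nearest, so which genes come first rests on TABS 1. Their correlations moved little, to 0.97 for Dtx3, 0.98 for Gpr153, 0.96 for Kmt2d and Phactr4 and 0.95 for Mrgpre and Smox, at ranks 8 to 46. Over all 8 libraries Hmga1b (r = 0.77) ranked 517th and Hmga2 (0.72) 789th. Without TABS 1 Hmga1b (0.90) ranked 195th and Hmga2 (0.82) 547th. These correlations hold the group difference, which all these genes share with Hmga1, and are a description of 8 libraries.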

How the data were processed

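RNA of 8 libraries (4 TABS, 4 HA) was sequenced as paired reads of 150 bases, per the labels' protocols. The authors deposited FPKM values per gene; fastp, STAR, DESeq2 and GRCm38 are named in the submitters' processing notes, with roles, versions, strand setting and annotation not given in the sources used here. The GENCODE annotation (GRCm38) held 55154 of the 55335 gene rows. Read counts were not recovered: at most 22.2% of low values of single-exon genes were whole steps (within 0.02), so depth is unknown and no count test or interval on counts was used. In the table, 16 columns carried no sample and no values.

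Genes of at least 1 FPKM in at least 4 libraries (11280) were fitted across all genes with limma (version 3.58.1, R version 4.3.3). Values were log2(FPKM + 1), so the pseudocount was 1, with trended variances, two-sided, with Benjamini-Hochberg adjusted p under 0.05 as threshold; the fit was tested on simulated data. Intervals are 95%. This scale understates changes of low genes. The labels do not state that the 4 replicates of a group were separate cultures, and p-values then reflect the spread among libraries, which may be technical. Same-numbered libraries did not pair, and no block was used.

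The genes, lists and rules were chosen with earlier results of these data known. Named were the 7 genes, up to 4 passing genes per list and direction (or the 2 with smallest adjusted p where none passed), the 6 genes most like Hmga1 without predicted models, and genes that contain a let-7 hairpin. Hmgb1, Igf1r, Ccnd1, Nras, Dicer1, Ago1, Ago2, Myc and Lin28a are named outside that rule. Alternatives were no filter, 5 FPKM, a pseudocount of 0.1, 3 other scalings, untrended or robust variances, a replicate block, GC and length correction, and each library left out.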

Additional observations from a re-analysis of the deposited data

Results flagged for a closer look

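Of 67 groups of 4 libraries checked among the named genes, 7 held 1 library far from the other 3 by Dixon's criterion on the gap over the range, where chance gives about 1 in 20. Hmga1 in TABS 1 stood at 44.2 FPKM, against 18.8 to 21.0 FPKM in the other TABS libraries. Lin28b in HA 4 stood at 0.0206 FPKM, where every library was next to 0. Plagl1 in TABS 3 stood low at 2.96 FPKM, Igf2r in TABS 4 low at 33.6 FPKM and Ccnb2 in TABS 1 low at 18.9 FPKM. Mrgpre in HA 1 stood high at 5.19 FPKM. Gm11146, which contains Mirlet7c-1 on the other strand, stood at 0.147 FPKM in TABS 2 and was listed at 0 in the other 7 libraries.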

How the results depend on the processing

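The log2 differences of Hmga1b and Hmga2 moved by less than the spread between replicates under every alternative run (with 1 library left out 0.55 to 0.65 and 0.47 to 0.55). That of Hmga1 was 0.74 to 1.14 with 1 library left out. Its moves were also below its spread of 0.43, but TABS 1 itself widens that spread, so this says little about stability. Hmga1 passed in 10 of 19 alternatives. The log2 difference of Igf2bp2 was 0.12 after rescaling to TPM. After GC and length correction, with or without the block, those of Igf2bp1 and Igf2bp2 were -0.0451 and 0.0087. The count of 833 passing genes became 542 with no filter and 415 to 718 with 1 library left out, 506 higher and 327 lower becoming 915 and 239 after rescaling to TPM and 492 and 455 after GC and length correction. Before rescaling to TPM, the summed FPKM was lower in every TABS library than in every HA library. The median log2 difference over all genes tested was 0.006 as deposited and 0.045 after that rescaling. The count of listed genes that passed, 6, was 2 with no filter, 3 at 5 FPKM and 2 to 4 (not always genes of the 6) with 1 library left out. With the replicate block 230 genes and 2 listed genes passed, and with the block and the GC and length correction 331 and 2. Same-numbered libraries did not deviate together (r from -0.10 to 0.10), and the labels give no other ground for pairing them. Of the 12 genes with at least 2 let-7 sites, 1 passed after quantile normalization and 0 with 1 library left out. With at least 1 site 31 of 352 passed, 23 higher and 8 lower, against 833 of 11280 (7.38%) over all genes tested. The causes were not tested. Without read counts, no counting error can be given for low genes such as Lin28b and most let-7 hosts.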
